A study of Drosophila melanogaster with 2 samples.

Results

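Many Drosophila genes can be transcribed from more than one promoter, and the data below show which of these promoters carried MESR4 in whole embryos. MESR4 is a nuclear protein with a PHD finger and zinc fingers. Chromatin immunoprecipitation followed by sequencing (ChIP-seq) had been done on embryos of a transgenic line in which green fluorescent protein (GFP) is fused to the C terminus of MESR4. The 2 samples were biological replicates 1 and 3 of 1 group, each made from pooled male and female embryos aged 0 to 24 h. All tissues and stages of that span were therefore mixed in each sample, and the tagged protein alone was mapped.

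The genes described here are protein-coding genes whose annotated transcription start sites (TSSs) form at least 2 clusters more than 2000 bp apart. Each cluster is called a promoter, and promoters are called first, inner or last by their order along the gene from 5′ to 3′. A promoter was called bound when the summit of a peak lay within 500 bp of one of its TSSs. The peaks were those of the authors' list thresholded on the irreproducible discovery rate, a measure of how alike peaks rank in the replicates. Of 13834 protein-coding genes, 1198 had 2 or more promoters, and 554 of these had at least 1 bound promoter. The members were thus chosen by the measured peaks themselves, so the presence of a summit and its signal are given as a description, without a test. With 1 group and 2 replicates no comparison between conditions could be made.

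Alternative promoters give transcripts with different 5′ ends. Some change only the untranslated leader and so the tissue or stage in which a protein is made, and others start translation at another codon and give a protein with another N terminus. The annotation lists TSSs from many tissues and stages and does not say which were in use in these embryos. Fly promoters are also known to fall into broad classes by their sequence. Promoters of genes active in most cells often carry the element called Motif 1, the DNA replication-related element (DRE) or Ohler motif 7, whereas promoters of developmentally regulated genes more often carry a TATA box, a positioned initiator or GAGA repeats.

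The promoter sequences of 4 genes with a strong summit at 1 promoter alone are shown first, because they set a bound and an unbound promoter of the same gene side by side. AGO2 encodes the Argonaute protein of the small interfering RNA pathway, crc the stress-response transcription factor related to ATF4, Wdr62 a spindle and centrosome protein, and aux the auxilin cofactor of clathrin uncoating. Each run is 201 bases of the release 6 genome, written 5′ to 3′ with the TSS shared by most transcripts of that promoter at base 101. Capitals mark matches, on either strand, to the motifs searched.
AGO2 first promoter, bound, chr3L:15554013-15554213, plus strand: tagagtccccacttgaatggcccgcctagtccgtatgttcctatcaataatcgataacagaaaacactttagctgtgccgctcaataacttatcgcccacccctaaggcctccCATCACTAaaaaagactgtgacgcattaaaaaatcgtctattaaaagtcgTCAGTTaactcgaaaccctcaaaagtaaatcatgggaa
AGO2 last promoter, unbound, chr3L:15556723-15556923, plus strand: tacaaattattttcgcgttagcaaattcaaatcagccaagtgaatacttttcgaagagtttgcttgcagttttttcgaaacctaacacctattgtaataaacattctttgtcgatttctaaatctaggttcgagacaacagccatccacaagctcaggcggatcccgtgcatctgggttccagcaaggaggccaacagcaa
crc first promoter, bound, chr2L:21310766-21310966, plus strand: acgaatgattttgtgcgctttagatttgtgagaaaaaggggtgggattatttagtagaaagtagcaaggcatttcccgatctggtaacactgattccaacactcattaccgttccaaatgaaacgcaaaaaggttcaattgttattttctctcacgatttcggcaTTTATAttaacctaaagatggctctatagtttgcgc
crc last promoter, unbound, chr2L:21314260-21314460, plus strand: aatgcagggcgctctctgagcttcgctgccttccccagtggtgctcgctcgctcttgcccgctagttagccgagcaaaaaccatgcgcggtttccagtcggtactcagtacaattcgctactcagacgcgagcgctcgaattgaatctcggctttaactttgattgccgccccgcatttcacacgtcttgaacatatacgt
Wdr62 first promoter, bound, chr2L:1884522-1884722, plus strand: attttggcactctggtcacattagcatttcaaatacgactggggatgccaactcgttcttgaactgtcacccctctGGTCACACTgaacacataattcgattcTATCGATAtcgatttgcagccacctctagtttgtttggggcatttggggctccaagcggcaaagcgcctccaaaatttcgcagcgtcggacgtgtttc
Wdr62 inner promoter, unbound, chr2L:1911642-1911842, plus strand: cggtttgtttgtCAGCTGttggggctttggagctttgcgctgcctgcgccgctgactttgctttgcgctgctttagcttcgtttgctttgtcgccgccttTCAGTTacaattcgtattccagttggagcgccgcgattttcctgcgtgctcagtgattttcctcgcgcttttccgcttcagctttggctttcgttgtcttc
Wdr62 last promoter, unbound, chr2L:1927653-1927853, plus strand: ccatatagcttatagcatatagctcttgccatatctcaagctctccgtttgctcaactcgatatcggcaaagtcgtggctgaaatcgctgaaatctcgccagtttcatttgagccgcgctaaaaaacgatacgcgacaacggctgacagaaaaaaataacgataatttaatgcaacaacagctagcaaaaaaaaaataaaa
aux last promoter, bound, chr3R:4220886-4221086, plus strand: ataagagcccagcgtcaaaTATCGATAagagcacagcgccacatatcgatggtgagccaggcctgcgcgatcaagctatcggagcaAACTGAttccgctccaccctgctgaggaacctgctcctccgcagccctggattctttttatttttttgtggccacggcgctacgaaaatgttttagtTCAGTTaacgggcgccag
aux first promoter, unbound, chr3R:4211683-4211883, plus strand: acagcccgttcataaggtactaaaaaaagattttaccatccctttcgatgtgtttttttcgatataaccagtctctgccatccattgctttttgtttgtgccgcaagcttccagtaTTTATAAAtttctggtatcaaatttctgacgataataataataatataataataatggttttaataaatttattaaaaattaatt

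The signal, the authors' measure of enrichment on the scale of the thresholded list, was 1759 at the bound AGO2 promoter, 1456 at that of crc, 1411 at that of Wdr62 and 1388 at that of aux. In AGO2 the bound promoter held Ohler motif 7 (CATCNCTA) starting 13 bases downstream of the TSS and an initiator (TCAGTT) further downstream, and no searched motif was matched at the unbound promoter. The bound promoter of Wdr62 held Motif 1 (GGTCACACT) and, close to the TSS, the DRE (TATCGATA), while its unbound inner promoter held an E-box (CAGCTG) and an initiator that begins at the TSS itself. The aux gene ran the other way round in position: its last promoter was bound and held a DRE and initiators, and its first promoter, with no summit in any list, held TATA box letters (TATAAA). At crc the bound promoter had TATA box letters downstream of the TSS on the opposite strand as its only match. A match is a run of letters and not a measured binding site.

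Across the genome, a gene with several promoters had a bound one slightly more often than a gene with one. A promoter peak was found for 46.2% of genes with 2 or more promoters (95% Clopper-Pearson interval 43.4 to 49.1), against 42.2% of genes with 1 promoter and 42.6% of all genes. Having more promoters gives a gene more windows in which a summit can fall, and these shares were not adjusted for that. The intervals here and below take each gene or promoter as independent, and the spread of replicates is not in them. A summit near the TSSs of several genes was counted for each of them. Members lay on all arms analysed, from 43.1% of the genes with 2 or more promoters on 2L to 56.2% on the small chromosome 4, where there were 16 such genes.

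Within these genes the first promoter carried most of the summits. The first promoter was bound in 36.0% of the 1198 genes (431 genes), the inner promoters in 10.4% (56 of 538 promoters) and the last promoter in 13.7% (164 genes). The order of first over last and inner was the same in each replicate. Among as many of the strongest summits of replicate 1 as the thresholded list holds, 34.4% of first, 9.48% of inner and 12.6% of last promoters were bound, and in replicate 3 the shares were 39.3%, 10.8% and 15.3%. Genes with 1 promoter were bound at 41.4% in replicate 1 and 42.8% in replicate 3. First promoters thus came closest to the level of only promoters, and inner and last promoters lay well below it in both replicates.

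**Figure D1:**
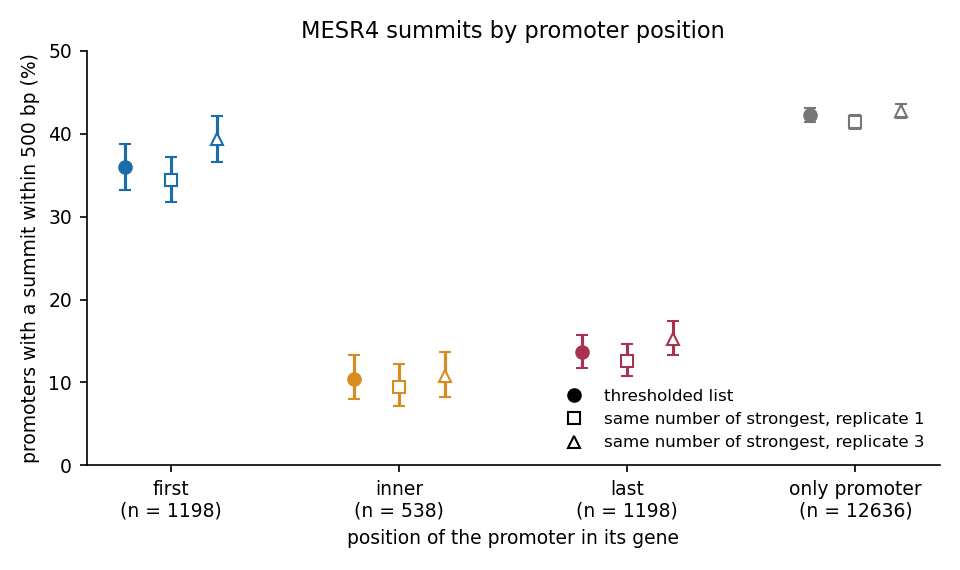
Share of promoters with a summit within 500 bp of a TSS (y axis, percent) by position in the gene (x axis), for the thresholded list and for the same number of strongest summits of replicates 1 and 3; bars are 95% Clopper-Pearson intervals. First promoters lie between 34.4% and 39.3% in the 3 lists, last promoters between 12.6% and 15.3%, and the only promoters of other genes between 41.4% and 42.8%.

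First promoters also more often had another gene's TSS close by, on either strand, and this moved with the binding. Another protein-coding gene had a TSS within 500 bp of 284 of the 1198 first promoters and of 90 last promoters. Where such a neighbour was present, 65.1% of first and 52.2% of last promoters were bound, against 77.1% of only promoters. Where none was present, the shares were 26.9% for first promoters (246 of 914), 10% for inner (52 of 520), 10.6% for last (117 of 1108) and 26.8% for only promoters. Without a neighbour, first promoters still carried a summit more often than last ones and matched only promoters to within the width of the interval. A summit between 2 close TSSs cannot be given to one of them, so of the bound promoters 86.3% of first, 98.2% of inner and 89.0% of last were those whose summit had its nearest TSS in the gene itself.

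The number of annotated TSSs in a promoter moved with binding too. Among promoters with a single annotated TSS, 33.0% of first, 10.2% of inner and 10.3% of last promoters were bound. Among those with 2 or more TSSs the shares were 46.3%, 11.5% and 28.8%. Last promoters that hold the TSS of Ensembl's canonical transcript were bound in 19.9% of genes, against 11.6% of last promoters without it. For first promoters the canonical TSS went with little difference, 36.7% with it and 34.7% without it. What these annotation features contribute to the difference between positions was not tested.

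Most members had a summit at a single promoter. The first promoter alone was bound in 343 of the 554 members (61.9%), the last alone in 96 (17.3%) and inner promoters alone in 27 (4.87%). First and last together were bound in 64 members, first and inner in 20, and first, inner and last in 4. No member had an inner and the last promoter bound without the first. Counted together, the first promoter was bound in 77.8% of members (74.1 to 81.2), the last in 29.6% (25.8 to 33.6), and 2 or more promoters in 16.2% (90 members, 13.3 to 19.6). That last share depended on the summits counted: it was 7.03% with the stronger part of the thresholded list and 9.25% when the peak region had to cover a TSS.

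The first promoter alone was the most frequent pattern both in members with 2 promoters, which have no inner promoter, and in the others. Of the 379 members with exactly 2 promoters, 251 were bound at the first alone, 76 at the last alone and 52 at both. The other 175 members had between 3 and 12 promoters. Of those, 92 were bound at the first alone, 20 at the last alone and 27 at inner promoters alone. Inner promoters were the more numerous: 56 of 310 were bound (18.1%), against 36 of 175 last promoters (20.6%). On each chromosome between 76.5% (2L) and 81.1% (X) of members were bound at the first promoter.

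The bound promoters were then looked up in each replicate. The thresholded list keeps summits for ranking alike in the replicates, so some agreement is built into this count and it is given as a description. The same set of promoters was bound among the strongest summits of replicate 1 in 496 of 554 members, of replicate 3 in 455, and of both replicates in 405 (73.1%). Of the 464 members with exactly 1 bound promoter, none had only a different promoter bound in replicate 1, and 7 did in replicate 3. Extra promoters among the strongest summits were also rarer in replicate 1, with 4 of those 464 members against 37 in replicate 3. Members with 2 or more bound promoters were less uniform, and 58 of those 90 showed the same promoters in both replicates.

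Among the strongest first promoters bound alone were those of CG12054, AGO2, CenG1A, crc and Wdr62. CG12054 had a signal of 2009 at its first promoter, with 1562 in the list of replicate 1 and 394 in that of replicate 3. Each list has its own scale, and this summit ranked 6th and 169th in those lists. Its last promoter, 4215 bp downstream, had a sub-threshold summit of 84.8. CenG1A, an Arf GTPase-activating protein, had 1536 at its first promoter against 120 at its inner and 65.4 at its last promoter, the last lying 58638 bp away. The first promoter of CenG1A lies within 500 bp of a TSS of mRpS23, although the summit was nearer to CenG1A. In these 5 genes the bound and the unbound promoters had no annotated start codon in common.

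Among summits nearest to the gene itself and present in both replicates, the strongest last promoters bound alone were those of aux, Strip, vig, CG1677, CG1764 and CG5445. Strip encodes a component of the striatin-interacting phosphatase and kinase complex, and vig an RNA-binding protein of the RNA-induced silencing complex. The signal at the last promoter was 1388 for aux, 1108 for Strip, 1077 for vig and 1059 for CG1677. The first promoter of each of these 4 genes had no summit in the list of both replicates or in either replicate's list, although each of those lists holds 30000 summits. In CG1677 the promoters lie 119602 bp apart. Other genes, Gtpx and CG2059, have a TSS within 500 bp of the bound promoters of Strip and CG1677. All 6 genes but Strip used the same start codons from both promoters, and in Strip some were shared.

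Inner promoters bound alone reached lower signals. The highest was 763 at the 4th of 5 promoters of tmod, which encodes tropomodulin, the protein that caps the pointed ends of actin filaments. Replicate 1 gave 542 and replicate 3 gave 224 for this summit, at ranks 821 and 1094. The last tmod promoter had 168, just under the lowest signal of the thresholded list (176), and the first had 59.7. SCCRO4 had 538 at the 2nd of 3 promoters. Orai, the pore subunit of the store-operated calcium channel, had 504 at the 2nd of 3, where the first had 67.1 and the last 96.0. The zinc finger protein gene shn, a partner of Dpp signalling, had 463 at the 2nd of 5 promoters, and the other promoters had 122 or less. CG31522 had 455 at the 2nd of 3.

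By signal as well as by frequency, first promoters ranked highest. The median signal was 412 at bound first promoters (quartiles 269 to 623), 299 at inner (206 to 445) and 338 at last promoters (234 to 566), against 472 at the promoters of bound genes with only one. The signals ranged from 177 to 2009 at first, 178 to 866 at inner and 177 to 1858 at last promoters, and so overlapped widely. Without another gene's TSS within 500 bp the medians were 375, 262 and 305. The summit of 1858 was assigned to the last promoter of NaCP60E, a sodium channel gene, but lay closer to the TSS of RpL41, a ribosomal protein gene.

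Where the first and the last promoter of one gene were both bound, neither position was clearly ahead. The first had the higher signal in 39 of 68 genes (57.4%, 44.8 to 69.3), and in 26 of the 45 genes whose 2 summits were both nearest to the gene's own TSSs. The 68 include Alp12 and CG13085, which have the same 2 summits (316 and 240). Replicate 1 gave 39 of 68 and replicate 3 gave 44 of the 66 genes with both values. These intervals include 50% in the thresholded list and in replicate 1 and lie above it in replicate 3. The same promoter was the stronger in both replicates in 55 of 66 genes, all of them chosen for summits that rank alike in the replicates. The 2 signals were over 2-fold apart in 28 genes.

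The first promoter was far ahead in atl, which encodes the membrane-fusing GTPase atlastin of the endoplasmic reticulum, with 1143 at the first and 235 at the last promoter. Its first promoter had 834 and its last 166 in replicate 1, and 342 and 78.6 in replicate 3. Other genes of this kind were scny, a ubiquitin protease gene, with 859 at the first and 221 at the last promoter, and MTF-1, the metal-responsive transcription factor gene, with 855 and 244. MEP-1, a zinc finger partner of the remodeller Mi-2, had 1001 at the first and 331 at the last promoter, and the SUMO protease gene velo had 1417 and 547.

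The opposite order was seen in AGO1, the Argonaute of the microRNA pathway, with 215 at the first and 871 at the last promoter. AGO1 and AGO2, related proteins of separate small RNA pathways, thus had their stronger summit at opposite ends. The first promoter of px, a wing vein patterning gene, had 645 and its last had 1677, at 47966 bp from the first, while the inner promoter between them had 51.0. Pgk, encoding the glycolytic enzyme phosphoglycerate kinase, had 316 at the first and 826 at the last promoter, CaMKII, a calcium-dependent kinase, had 204.9 and 475.7, and CG31729 had 187 and 546. For omd the ratio was larger still (203 and 1819), though omd falls outside the rule by which the other genes were named and was picked after its values were seen.

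**Figure D2:**
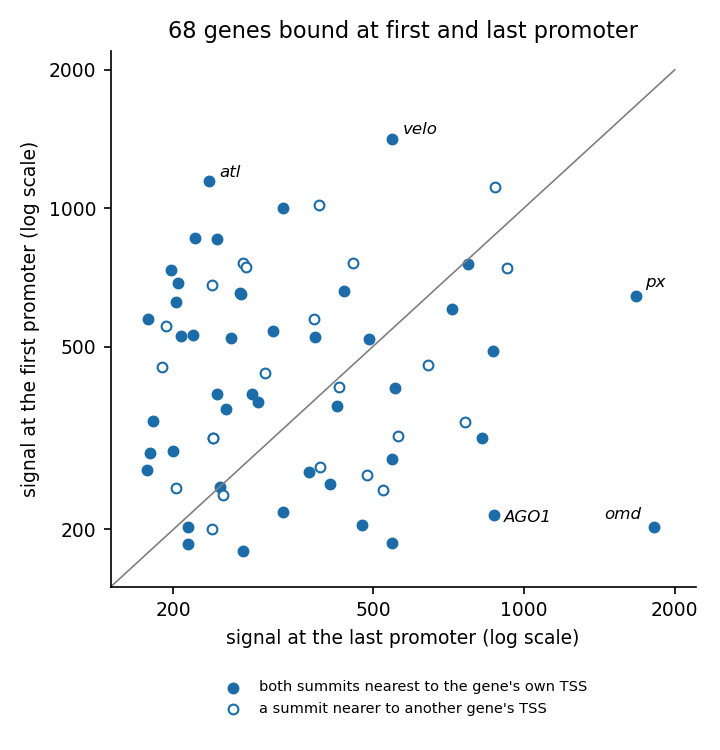
Signal at the first promoter (y axis, log scale) against signal at the last promoter (x axis, log scale) for the 68 genes with both bound; each point is a gene, open where a summit had a neighbouring gene's TSS as its nearest, and the line marks equal signal. Of the 68 points 39 lie above the line, with atl (1143 and 235) far above it and omd (203 and 1819) far below.

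Neighbouring promoters were more often both bound where they lay close together. Among adjacent pairs with at least 1 summit, both were bound in 16.2% of 314 pairs that were 2000 to 5000 bp apart (12.3 to 20.8) and in 12.5% of 136 pairs 5000 to 10000 bp apart. Both were bound in 7 of 106 pairs at 10000 to 20000 bp (2.70 to 13.1%), and in 1 of 75 pairs beyond that distance (0.0338 to 7.21%). The upstream promoter alone was bound in 63.4% of the closest and 66.7% of the farthest pairs. A summit lies within 500 bp of a TSS by the rule and the promoters are over 2000 bp apart, so the same summit was never counted for both. The median distance from first to last TSS was 6489 bp in members with 2 or more bound promoters, 8140 bp in those with 1, and 8803 bp in genes without a bound promoter.

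Few genes had 3 or more bound promoters. Rtnl1 encodes a reticulon, a protein that shapes the endoplasmic reticulum, and its 4 promoters from first to last had signals of 605, 292, 205.2 and 719. In replicate 1 these were 388, 211, 174 and 523, and in replicate 3 they were 214, 83.1, 39.7 and 191. The outer promoters were the highest in both replicates. The summit at the 3rd promoter ranked 8779 in replicate 3, outside the strongest summits of that replicate. The phosphatase gene Ptpmeg2 had signals that rose along the gene, with 285, 386, 458 and 547 at its 4 promoters. That order held in replicate 1 (209, 296, 338 and 429), but in replicate 3 the first promoter had 124 and the last 121. In milt, which encodes the Milton adaptor that links mitochondria to kinesin, all 3 promoters were bound, with 525, 492 and 383. Pax, the paxillin gene of focal adhesions, had 240, 316 and 261 at its first 3 of 5 promoters, the first summit being nearer to a neighbouring gene's TSS. The summits of 240 and 316 are also those counted for Alp12 and CG13085.

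Genes known for alternative promoters had a bound promoter at a share near that of all genes with several. A list of 40 such genes was written from textbook knowledge, with earlier results of these data known. Of the 40, 32 had 2 or more promoters by the rule. Of those 32, 12 were members (37.5%, 21.1 to 56.3), near the 46.2% of all genes with several promoters. Their median signal was 485, beside 420 for the strongest promoter of all members. The first promoter was bound in 8 of the 12, the last in 3. The hormone receptor gene EcR and the transcription factor genes br, Antp, hb and fru, the last with 7 promoters, were among the 20 without a summit at any promoter.

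Sxl, the sex-determination master gene, is known for an early promoter used in young female embryos and an upstream maintenance promoter used later in both sexes. The first promoter of Sxl had a signal of 630, with 451 in replicate 1 and 190 in replicate 3, and the last, 5170 bp downstream, had no summit in any of the 3 lists. For tkv, a type I receptor for Dpp, the signal was 505 at the first promoter, 104 at the inner and 56.2 at the last. Mef2, a muscle transcription factor gene, had 601 at the first of 3 promoters, and Lar, a receptor tyrosine phosphatase gene of axon guidance, had 640. The cell cycle regulator E2f1 had 429 at the first of 3 promoters, against 45.5 and 33.9 at the others. The pipsqueak gene psq had 358, with a replicate 3 rank of 7244 that fell outside the strongest summits of that replicate.

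In other genes of this list a downstream promoter was bound. Ptp61F, a tyrosine phosphatase gene, had 612 at its last promoter, 124658 bp from the first, which had 37.4. The zinc finger gene jing had 266 at the last of 3 promoters. Eip75B, an ecdysone-induced nuclear receptor gene known for isoforms with different N termini, had 239 at the 4th of 6 promoters, with 230 in replicate 1 and 48.1 in replicate 3. The splicing regulator gene mbl had 264 at the middle of 3. The growth regulator bun had 848 at its first and 199 at its 5th promoter of 6, and that 5th summit ranked 29696 of 30000 in replicate 3. Tm1, which encodes tropomyosin isoforms, had 366 at the first, 466 at the 3rd and 254 at the last of 4 promoters, with 69.8 at the 2nd. The first Tm1 promoter lies within 500 bp of TSSs of MRG15 and l(3)neo43. In replicate 3 the bound summits of Eip75B (rank 7407), mbl (6660) and the last Tm1 promoter (7950) fell outside the strongest summits.

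**Figure D3:**
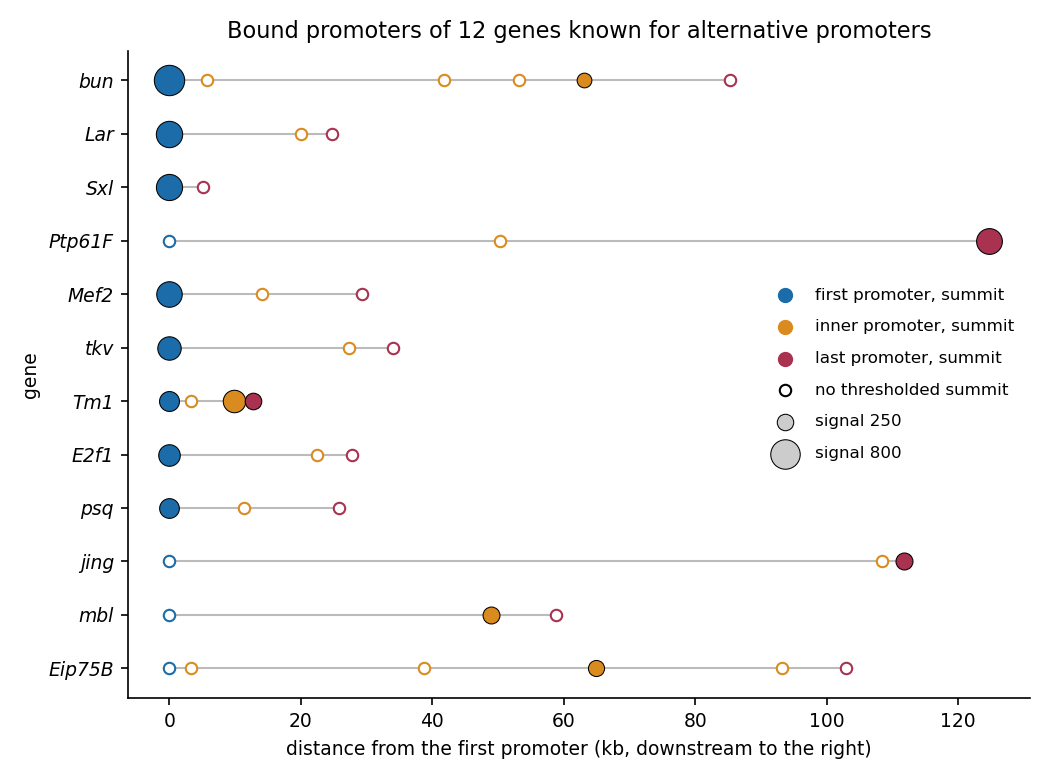
Promoters of the 12 members known for alternative promoters, by distance from the first promoter (x axis, kb) with 1 gene per line; filled circles are bound promoters with area in proportion to signal, and open circles have no thresholded summit. In 8 genes the first promoter is filled, in Ptp61F and jing the last alone, and in mbl and Eip75B an inner one alone.

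Lists of genes by function were also chosen with earlier results of these data known. They were read against the 46.2% of all genes with several promoters that had a bound one. The chromatin and the adhesion and cytoskeleton lists lay above that share, on small numbers. All 6 chromatin genes with 2 or more promoters were members (54.1 to 100%), with a median signal of 476. They include kis, a chromatin remodeller gene with 1091 at its first promoter and 61.7 at its last, and fs(1)h, the bromodomain protein gene, with 682 at the first and 239 at the last. The first summit of fs(1)h and that of Mi-2 (660), the remodeller subunit gene, lay nearer to the TSSs of mys and Prp3. Trl, which encodes the GAGA factor, had 232 at its last promoter and no summit at its first in the list of both replicates, though replicate 3 listed one of 38.0 there at rank 9148. Of 21 adhesion and cytoskeleton genes 15 were members (71.4%, 47.8 to 88.7), with a median of 326, and 13 of them were bound at the first promoter. Among these cno had 483, ena 478 and par-1, a polarity kinase gene, 614 at the first promoter, while the scaffold gene dlg1 had 639 at the last of 5 and 165 at the first.

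Of 19 signalling genes 9 were members (47.4%, 24.5 to 71.1), close to the 46.2% of all such genes, with a median of 577. The first promoter was bound in 8 of them, among them Axn of the Wnt pathway with 1009, the nuclear effector of that pathway, pan, with 833, and the Dpp effector Mad with 758. TSSs of RpS28a and gkt lie within 500 bp of the bound promoters of Axn and Mad, although those summits had their nearest TSS in Axn and Mad. Raf, the kinase downstream of Ras, was bound at its last promoter with 702, against 33.3 at the first. The kinase gene sgg had 565 at the first and 577 at the 3rd of 5 promoters. Of 7 cell cycle and growth genes 5 were members (29.0 to 96.3%, which includes 46.2%), all at the first promoter, with a median of 424. The caspase inhibitor gene Diap1 had 319 at the first and 424 at the 2nd of 4 promoters, and p53 had 291 at the first.

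Below 46.2% lay the segmentation and homeotic genes, with none of 8 a member (0 to 36.9%), and the ion channel genes, with 1 of 14 (0.181 to 33.9%), which is NaCP60E described above. The intervals of the remaining lists include 46.2%. The ecdysone response genes gave 3 of 14 (4.66 to 50.8%), namely Eip63E (843 at the first), Eip75B and tai, and the BTB-domain transcription factor genes gave 2 of 10 (2.52 to 55.6%), psq and Trl. The summit counted for tai lay nearer to another gene's TSS. RNA-binding protein genes gave 9 of 22 (40.9%, 20.7 to 63.7) with a median of 264, including elav with 458 at the first promoter and pum with 295. Circadian genes gave 3 of 6 (11.8 to 88.2%), with CkIIalpha at 804 at its last promoter. Some genes stand on more than 1 list, and the lists were not tested against each other.

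Summits lay at different places at the 3 kinds of promoter. At first promoters the summits had a median position of 58 bp downstream from the gene's nearest TSS, with 71.0% of summits downstream. At inner promoters it was 151 bp upstream, with 32.1% downstream (20.3 to 46.0), and at last promoters 15 bp upstream, with 44.5% downstream (36.8 to 52.5). Over 100 bp upstream lay 19.9% of first, 55.4% of inner and 33.5% of last summits. Promoters more than 1000 bp from any other gene's TSS gave medians of 53 bp downstream at first, 159 bp upstream at inner and 36 bp upstream at last promoters. At 1717 only promoters of that kind the median was 85 bp downstream, with 83.1% of summits downstream.

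The replicates kept the order, but the size of the inner offset depended on the replicate. Both were read only at promoters bound in the thresholded list and among the replicate's own strongest summits, so some agreement is built in. This left 48 inner promoters in replicate 1 and 40 in replicate 3. In replicate 1 the medians were 77 bp downstream at first, 157 bp upstream at inner and 3 bp downstream at last promoters. In replicate 3 they were 42 bp downstream, 36 bp upstream and 8 bp upstream. The 13 bound inner promoters with a canonical TSS had a median of 4 bp downstream, against 159 bp upstream for the 43 without one. All TSSs of inner and last promoters lay inside transcripts that start further upstream: 55 of 56 bound inner TSSs were intronic and 1 exonic, and 144 of 164 bound last TSSs were intronic (87.8%), against 92.6% of unbound last TSSs. The summits at last promoters lay in an intron of an upstream transcript in 83.5% and in an exon in 16.5%.

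**Figure D4:**
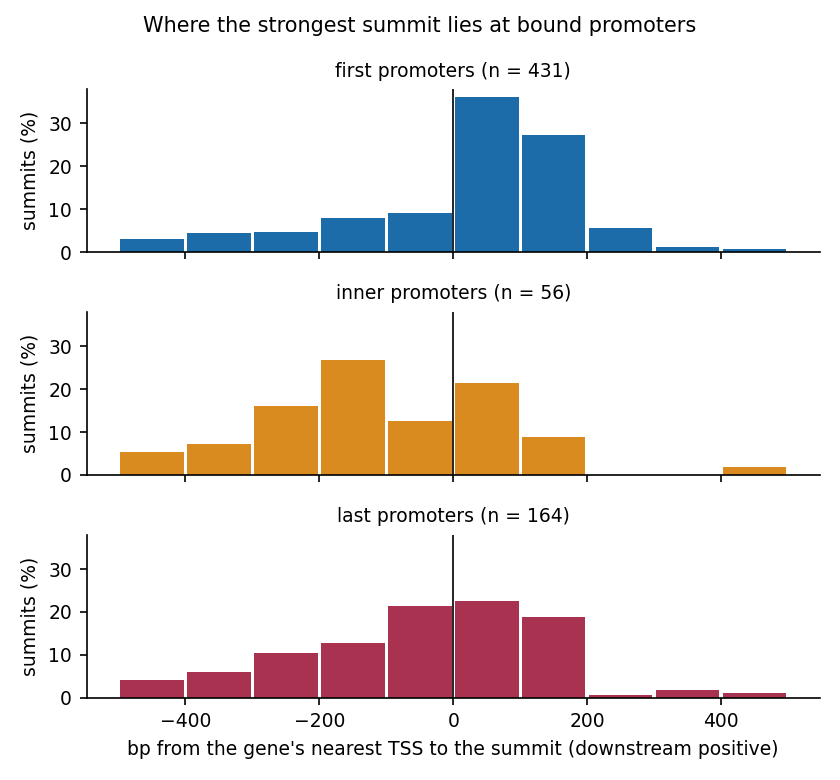
Share of bound promoters (y axis, percent) by position of the strongest summit relative to the gene's nearest TSS (x axis, bp in bins of 100, downstream positive), for first, inner and last promoters. The median lies 58 bp downstream at first promoters, 151 bp upstream at inner and 15 bp upstream at last promoters.

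Bound and unbound promoters of the same genes differed in their sequence motifs. Motif 1 was matched within 100 bp of the TSS at 9.37% of 651 bound promoters (7.24 to 11.9) and 0.913% of 767 unbound promoters of the members (0.368 to 1.87), beside 4.91% of all 15570 promoters. The DRE was matched at 10.3% of bound and 0.782% of unbound promoters, beside 7.14% of all, and Ohler motif 7 at 7.22% of bound and 0.130% of unbound, beside 4.85% of all. At promoters of genes with several promoters and no summit the shares were 0.594% for Motif 1, 1.12% for the DRE and 1.32% for Ohler motif 7 (0.808 to 2.03), the last of these above the share at the unbound promoters of members (0.00330 to 0.724). The letters were searched on both strands, and overlap between the motifs was not removed.

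The contrast was present within genes. Of the 327 members with 2 promoters and 1 of them bound, 34 held Motif 1 at the bound promoter alone and 3 at the unbound alone. For the DRE the counts were 32 and 1, and for Ohler motif 7 they were 30 and 0. For Motif 1 the order was the same at each position, on few matches at unbound and inner promoters. It was matched at 11.4% of bound (49 of 431) and 2.44% of unbound first promoters (3 of 123). At inner promoters the shares were 5.36% of bound (3 of 56) and 0.394% of unbound (1 of 254). At last promoters they were 5.49% of bound (9 of 164) and 0.769% of unbound (3 of 390). Without another gene's TSS within 500 bp, 7.71% of 415 bound promoters held Motif 1 against 0.970% of 722 unbound ones, and 7.95% against 0.693% held the DRE. These motifs were matched at a minority of bound promoters.

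The other elements were mixed. The initiator letters were matched at 17.2% of bound and 25.4% of unbound promoters (34 genes at the bound alone and 71 at the unbound alone), although at inner promoters the shares were 26.8% and 25.6%. GAGA repeats (GAGAGAG) were matched at 8.76% of bound and 11.7% of unbound promoters, and here the order depended on position: 5.57% of bound against 13.8% of unbound first promoters, but 13.4% against 10% of last and 19.6% against 13.4% of inner promoters. TATA box letters were matched at 16.7% of bound and 18.0% of unbound promoters, and the CA repeat (CACACACA) at 6.30% and 5.87%. Among all promoters the shares were 21.95% for the initiator, 4.3% for GAGA repeats, 27.55% for TATA box letters and 3.38% for the CA repeat. E-box letters were matched more often at bound promoters, 16.1% (13.4 to 19.2) against 9.78% (7.77 to 12.1) of unbound ones, beside 13.5% of all. They stood at the bound promoter alone in 43 genes and at the unbound alone in 22. The GC content of the 201 bases had a median of 43.8% at bound and 45.8% at unbound promoters, and differences in base composition were not adjusted for.

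**Figure D5:**
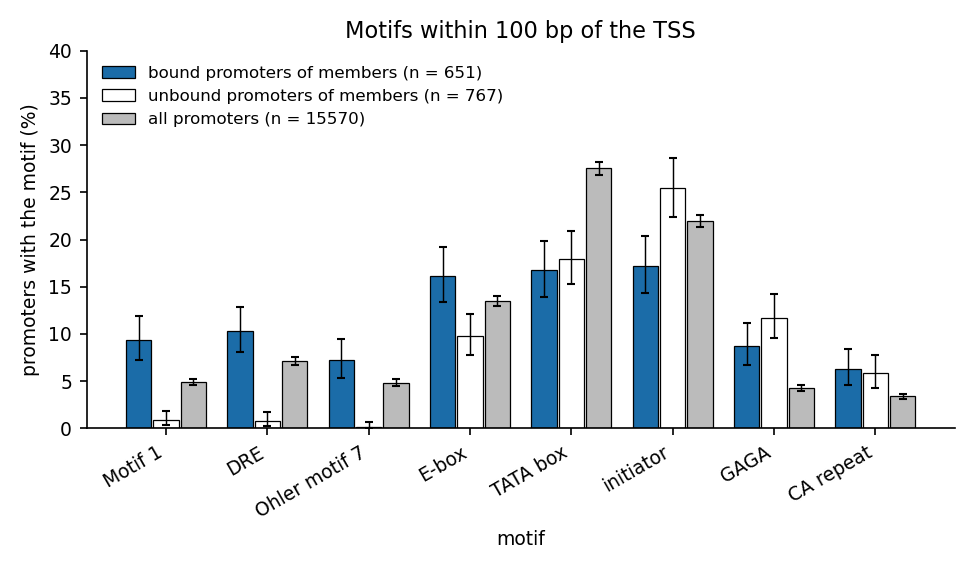
Share of promoters with each motif within 100 bp of the TSS (y axis, percent) at bound promoters of the members, unbound promoters of the members and all promoters; bars are 95% Clopper-Pearson intervals. Motif 1, the DRE and Ohler motif 7 stand at 9.37%, 10.3% and 7.22% at bound promoters and below 1% at unbound ones, and the initiator stands higher at unbound (25.4%) than at bound promoters (17.2%).

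In many members the bound and the unbound promoters lead to different annotated protein starts. In 234 of the 464 members with 1 bound promoter (50.4%), transcripts from the bound and the unbound promoters shared no start codon, in 65 some were shared, and in 163 (35.1%) they were the same. No start codon was shared in 53.1% of members bound at the first promoter alone (182 of 343), 41.7% of those at the last alone (40 of 96) and 48.0% of those at 1 inner promoter alone (12 of 25). The intervals of first and last overlap (47.6 to 58.4 and 31.7 to 52.2). The share was not counted for promoters of genes without a summit, so these values describe the annotation of the members alone.

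An unbound promoter was not always without a summit in the longer lists. Of the 767 unbound promoters of members, 429 (55.9%) had a sub-threshold summit within 500 bp in the list of both replicates, and 258 (33.6%) had none in any of the 3 lists. A sub-threshold summit was found at 65.9% of unbound first, 57.1% of inner and 52.1% of last promoters, with median signals of 86.2, 71.6 and 67.6. In all genes with 2 or more promoters, bound promoters included, the shares were 70.3% for first, 54.3% for inner and 49.5% for last. The list of both replicates was deposited as peaks and background together, so a summit in it need not mark binding. At the edge of the threshold, the weakest bound promoters were those of sick, CG46315 and CG6424, each with 177, and the strongest unbound ones were those of CG34355, Btk and cnc, with 176, 176 and 175. At the edge of the window, tun, Dh44 and CtsL1 had summits 488, 486 and 485 bp from a TSS and counted as bound, and aru, ReepA and Tab2 had summits at 505, 506 and 506 bp and did not. At the edge of the separation, ago, betaTub56D and fzr had promoters 2001, 2001 and 2004 bp apart, and Tango11, CG11089 and cnc had TSSs 2000, 1999 and 1997 bp apart that were joined.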

How the data were processed

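Per the labels, transcription factor ChIP-seq was done on pooled male and female embryos of a line with MESR4 tagged by GFP. In free text the labels call the samples input controls. Their antibody field gives MESR4, however, and the deposited listings show a separate control, so both were treated as immunoprecipitates. The antibody used against the fusion is not given. The authors deposited peak lists per replicate, for both replicates together, and thresholded on the irreproducible discovery rate. Column 7 of each list is the deposited signal, an enrichment on a scale of its own per list, so replicates were compared by rank and within a list. The peak caller, its threshold and the read depth are not given in the sources used here. Every summit of the thresholded list was found among the strongest of the list of both replicates.

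Coordinates are those of dm6 (release 6), counted from 1, with TSSs from Ensembl release 115 on arms 2L, 2R, 3L, 3R, 4 and X without the tandem histone genes. TSSs within 2000 bp were joined. A replicate's evidence was a summit among as many of its strongest as the thresholded list holds. Motifs were matched within 100 bp of the TSS that most transcripts of a promoter share, which need not be the TSS nearest to the summit. Sequence came from RefSeq's copy of the release 6 genome. Scripts used Python 3.11.15, NumPy 2.4.6, SciPy 1.17.1 and Matplotlib 3.10.9, and the assignment of summits was tested on simulated data.

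The members and gene lists were chosen with earlier results of these data known, including motifs at bound promoters, which are therefore no independent evidence. Genes were named by a rule: the strongest at first, last or inner promoters bound alone, the most unequal pairs of first and last, those with most bound promoters (in all of these but the last with the summit nearest to the gene itself and present in both replicates), and the strongest of each list. Other windows, thresholds, separations and single replicates were tried as alternatives. A few genes that the rule takes are not reported here.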

Additional observations from a re-analysis of the deposited data

How the results depend on the processing

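Across 13 alternatives, the first promoter was bound in more members than the last in all 13, with 74.1% to 80.9% of members for the first and 24.6% to 31.1% for the last; 62 of 78 values stayed within the interval of the main value or, for the number of members, within 1.5 times. The number of members (554) was 313 with the stronger part of the thresholded list, 320 with promoters separated by more than 5000 bp and 239 without genes that have a neighbouring TSS. Without those genes the first promoter was bound in 74.1% of members. The last promoter was bound in 24.7% when the peak region had to cover a TSS and in 24.6% with the stronger summits. The share with 2 or more bound promoters (16.2%) moved most: 13.1% and 20.6% with windows of 250 and 1000 bp, 9.25% with regions over a TSS, 7.03% with the stronger summits, 12.2% with the wider separation, 12.6% without neighbours, and 14.7% to 19.9% when either replicate was left out. It was 12.8% when summits in both replicates were also required, an alternative chosen after seeing the data, which also gave 13.9% for inner promoters (18.1%), against 12.1% with regions over a TSS. The share of genes with the first promoter stronger than the last was 47.8% without neighbours. The causes of these shifts were not tested. No paired analysis was possible because the series has 1 group. Shares of few genes are limited by their number, and without read depth an absent summit is not shown to mean absent binding.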
